A study of Mus musculus with 5 samples.

Results

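The *Period* genes *Per1*, *Per2* and *Per3* and the cryptochrome genes *Cry1* and *Cry2* encode the repressor arm of the circadian clock. They were chosen as the 5 members of these 2 mouse gene families, by symbol, out of 18193 genes that at least 1 probe set of the array names alone. Together they had 12 probe sets: *Per1*, *Cry1* and *Cry2* had 1 each, *Per2* had 3 and *Per3* had 6. Of the 12, 10 passed a filter on dim signal and were tested, and 2 dim probe sets of *Per3* did not.

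Total RNA of dorsal skin was hybridised to 1 Affymetrix whole-genome mouse array per mouse, from 2 *Clock* mutant mice and 3 wild-type (WT) littermates, all at postnatal day 23 (P23) and all staged as telogen, when hair follicles rest. The study describes its *Clock* mutants as mice of C57BL/6J background. The mutation is carried in every cell, so that these arrays do not single out the skin clock from that of other tissues. It is a known point mutation that alters splicing of the *Clock* message and leaves a protein that binds DNA but activates poorly. The labels do not say whether these 2 mice were homozygous, although the study's hair cycle staging table denotes its *Clock* mutants as *Cl/Cl*. Neither the hour at which their skin was taken nor that of the WT skin is given for these arrays in the sources used here. The only male was *Clock* mutant replicate 1, so that an effect of sex cannot be told apart from that mouse.

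CLOCK and its partner BMAL1 bind E-boxes and activate the *Period* and cryptochrome genes. The PER and CRY proteins then accumulate, enter the nucleus as complexes and block CLOCK-BMAL1, until kinases and ubiquitin ligases clear them and a new cycle of about a day begins. In peripheral tissues such as skin, each of these messages rises and falls through the day, and D-boxes, bound by DBP, TEF, HLF and NFIL3, and cyclic AMP response elements (CRE) add further inputs.

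The stretches upstream of the members are shown because the mutated factor acts through E-boxes in such stretches. D-boxes and CREs, the further inputs named above, were searched too. RefSeq promoter entries on build GRCm38.p6 matched 4 of the 5 members, and *Per2* had none. The bases before each transcription start were searched on both strands for the E-box CACGTG, the E-prime box CACGTT, the D-box TTANGTAA and the CRE TGACGT. Every match is in capitals below, where AACGTG is the E-prime box on the opposite strand. *Per3* (chr4:151044708-151044915, minus strand, upstream of the annotated gene) held 2 D-boxes. *Per1* has 2 entries, both within the annotated span of the gene: the first (chr11:69098699-69098948, plus strand) held an E-box and the second (chr11:69099902-69100151, plus strand) a CRE. *Cry1* (chr10:85185055-85185304, minus strand, upstream of the gene) held an E-box and an E-prime box, and *Cry2* (chr2:92434086-92434319, minus strand, upstream of the gene) an E-prime box. Bases that another annotated transcript of *Per3* or *Cry2* includes were left out.
Per3 upstream: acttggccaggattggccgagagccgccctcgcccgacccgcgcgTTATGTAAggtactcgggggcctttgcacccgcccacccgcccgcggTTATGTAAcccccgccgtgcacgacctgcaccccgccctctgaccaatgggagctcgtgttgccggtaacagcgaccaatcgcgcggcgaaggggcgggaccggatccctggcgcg
Per1 upstream of start 1: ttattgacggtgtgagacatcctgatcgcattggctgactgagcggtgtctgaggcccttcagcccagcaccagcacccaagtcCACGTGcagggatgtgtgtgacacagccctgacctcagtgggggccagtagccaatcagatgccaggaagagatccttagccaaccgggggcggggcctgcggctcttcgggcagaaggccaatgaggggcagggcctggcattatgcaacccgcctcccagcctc
Per1 upstream of start 2: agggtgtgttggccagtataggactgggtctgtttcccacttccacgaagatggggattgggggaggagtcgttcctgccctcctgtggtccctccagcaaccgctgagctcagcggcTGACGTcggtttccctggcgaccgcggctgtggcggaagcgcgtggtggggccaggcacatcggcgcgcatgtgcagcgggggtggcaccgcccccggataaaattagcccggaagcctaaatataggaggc
Cry1 upstream: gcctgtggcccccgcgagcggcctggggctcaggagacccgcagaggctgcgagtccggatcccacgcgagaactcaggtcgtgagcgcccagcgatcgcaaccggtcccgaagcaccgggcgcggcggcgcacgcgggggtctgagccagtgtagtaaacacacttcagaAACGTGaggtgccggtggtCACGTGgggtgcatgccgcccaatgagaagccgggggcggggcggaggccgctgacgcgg
Cry2 upstream: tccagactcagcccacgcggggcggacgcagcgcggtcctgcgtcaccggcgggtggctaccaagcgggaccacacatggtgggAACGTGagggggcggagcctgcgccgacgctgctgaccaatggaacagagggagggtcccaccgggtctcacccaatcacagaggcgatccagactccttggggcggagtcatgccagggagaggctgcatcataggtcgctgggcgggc

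The 2 D-boxes of *Per3* ended 198 and 151 bases before the start, the E-box of *Per1* ended 161 bases and its CRE 127 bases before their own starts, and the E-box and E-prime box of *Cry1* ended 55 and 74 bases before the start. The E-prime box of *Cry2* ended 161 bases before its start. Over 32851 promoter entries, the same 250 bases held an E-box in 6.02%, an E-prime box in 3.85%, a D-box in 2.06% and a CRE in 6.47%, and 2 or more D-boxes in 0.0731%. A match describes the letters only. The 1017 tested genes with an E-box had a median log2 difference of 0.02, *Clock* mutant minus WT, and the 171 with a D-box one of -0.01, against 0.02 over all 10391 tested genes with an entry. Both mutants lay below every WT mouse in 11% of the E-box genes and 18.1% of the D-box genes, against 12.2% of all, counts added after the values had been seen. The arrays held 8 tested genes with 2 or more D-boxes, *Per3* among them, and the others ranged from -1.10 for *Alb* to 0.46 for *H2ac19*.

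**Figure D1:**
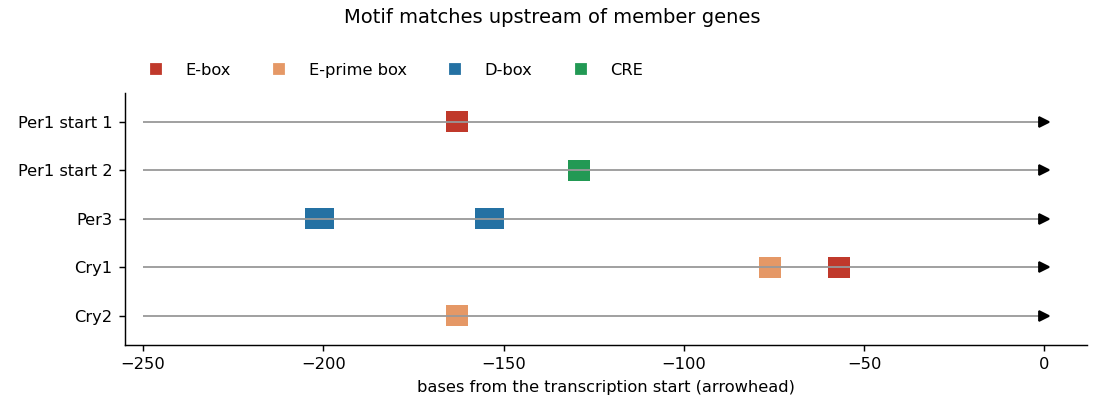
Motif matches (coloured blocks, drawn to scale) along the 250 bases before the transcription start (arrowhead) of the members with a promoter entry, in bases from the start. *Per3* alone among them held 2 D-boxes, and the E-boxes lay upstream of *Per1* start 1 and *Cry1*.

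Each value below is a MAS5 intensity, the deposited signal of a probe set on an array, and each difference is on the log2 scale, *Clock* mutant minus WT. Its standard error (SE), its 95% confidence interval and its p adjusted by the Benjamini-Hochberg method come from limma over all 27022 tested probe sets. Intensities of different probe sets depend on their probes and are not set against each other. In *Clock* mutant skin, *Per3* and *Per2* fell to 0.320 and 0.445 times the geometric mean of the WT intensities, while *Cry2*, *Cry1* and *Per1* stood at 0.610, 0.618 and 0.737 times it with adjusted p-values above 0.05. With 1 probe set per gene, the brightest, both mutant arrays lay below all 3 WT arrays for all 5 members. This order was shown by 1588 of all 12955 tested genes at their brightest probe sets. Over all tested probe sets, 15.1% showed it in this direction and 12.8% in the other. Adjusted p was under 0.05 for 2 of the 10 tested member probe sets, against 0.0740% of all tested probe sets called lower and 0.0148% called higher. Unadjusted p was under 0.001 for 5 of the 10, against 0.414% of all tested called lower, and under 0.05 for 9 of the 10, against 6.71%. The median difference was -0.91 over the 10 tested member probe sets and -0.02 over all tested. Of the 10 member probe sets, 3 are of *Per2* and 4 of *Per3*, so that these genes count more than once. Taking only the brightest one per gene, the member median was -0.71, against 0.02 over the 12955 tested genes. Among these 5 member probe sets, unadjusted limma p was under 0.001 for 3 and under 0.05 for all 5. A lower level in bulk skin cannot be told apart from fewer cells that express the gene.

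**Figure D2:**
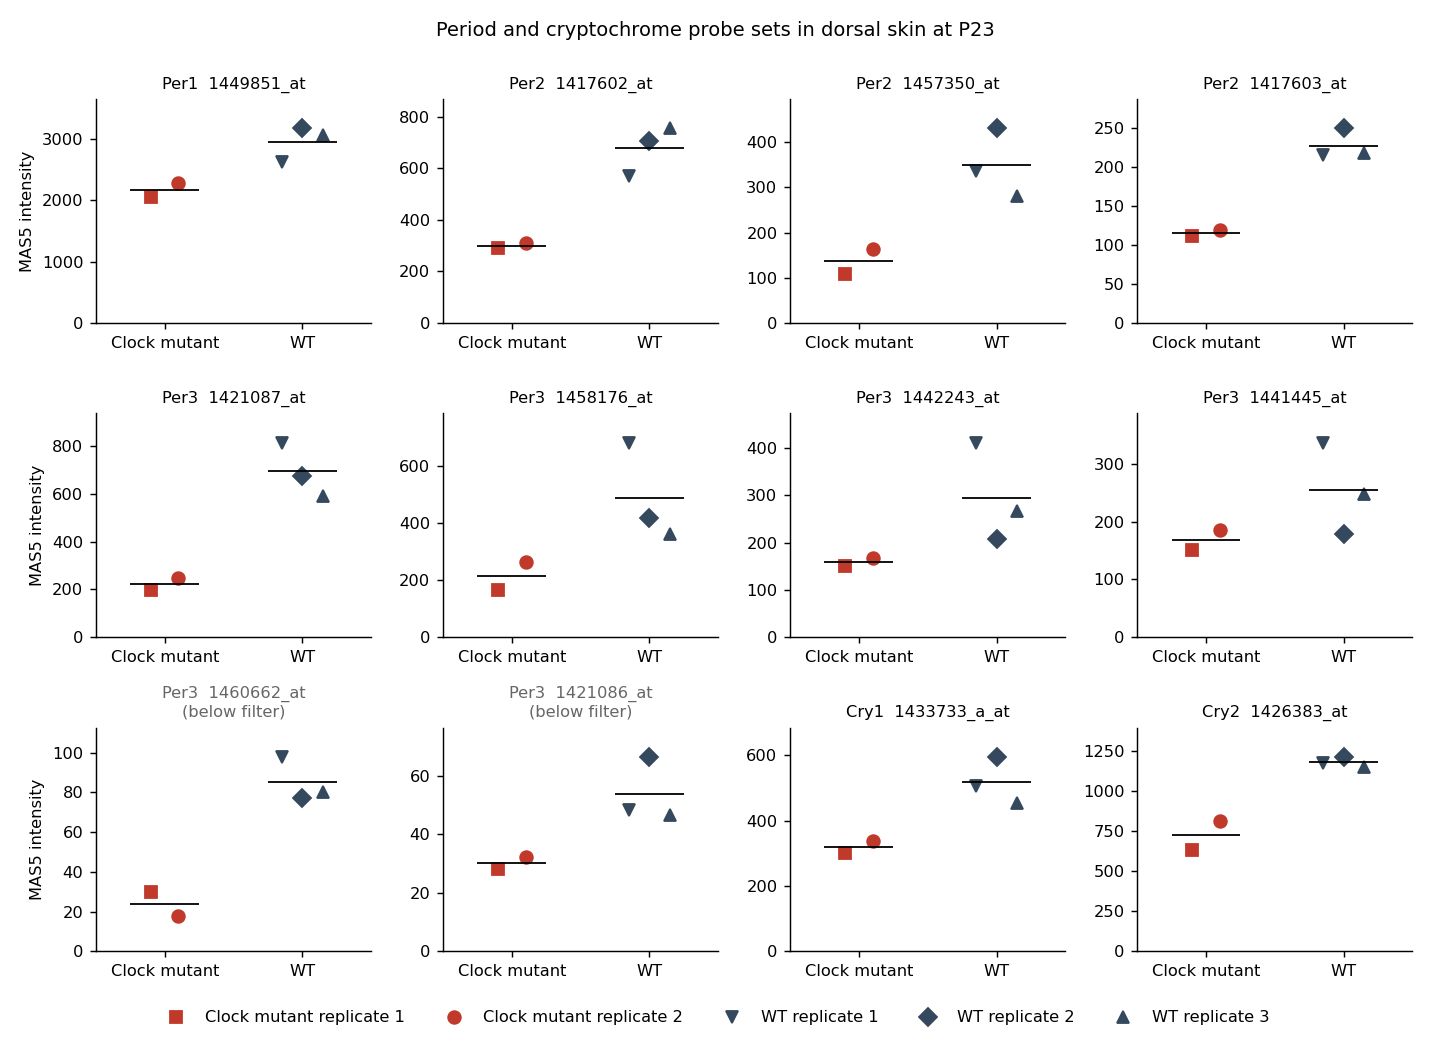
MAS5 intensity (linear axes from 0) of the 12 member probe sets in each array, with *Clock* mutant arrays left (red) and WT arrays right (dark), 1 marker shape per mouse and a line at each group mean. Only probe set 1441445_at of *Per3* has overlapping groups.

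*Per3* encodes the period protein that mice can lose with little effect on the clock itself. Its brightest probe set, 1421087_at, had intensities of 196 and 247 in *Clock* mutant skin, against 815, 676 and 591 in WT skin. The higher mutant value was under the lowest WT value by 1.26 on the log2 scale, the widest such gap of the tested member probe sets, while the SD within groups was 0.24 in mutants and 0.23 in WT. The difference was -1.64 (SE 0.170, confidence interval -2.03 to -1.26, limma adjusted p = 0.0144), and the probe set was number 8 of all tested when ordered by p.

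The other *Per3* probe sets pointed the same way with wider errors. Probe set 1458176_at had 167 and 265 in mutants and 683, 417 and 364 in WT, a difference of -1.16 (SE 0.281, limma adjusted p = 0.246), and the groups did not overlap. Probe set 1442243_at had 149.6 and 167 in mutants and 412, 208 and 266 in WT, also without overlap (difference -0.85, SE 0.263, limma adjusted p = 0.346). Probe set 1441445_at had 151 and 185 in mutants and 337, 178 and 248 in WT (difference -0.56, SE 0.258, limma adjusted p = 0.476). It is the 1 member probe set whose groups overlapped, since mutant replicate 2 lay above WT replicate 2, and its confidence interval of -1.14 to 0.03 did not reach the difference at the brightest probe set. Whether the probe sets differ from each other was not tested.

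Both dim *Per3* probe sets lay under the filter, which was set on the mean log2 intensity at a value equal to an intensity of 56.7. Probe set 1460662_at had 30.1 and 17.8 in mutants and 97.9, 77.0 and 80.0 in WT, with a difference of -1.87 (confidence interval -2.75 to -0.99), and 1421086_at had 28.0 and 32.3 in mutants and 48.2, 66.6 and 46.7 in WT, with one of -0.82 (interval -1.72 to 0.08). Neither passed in the fit without a filter (limma adjusted p = 0.301 and 0.623), although the groups were apart in both. Without the filter, *Per3* at its brightest probe set kept its call with a limma adjusted p of 0.0334, and with the mean of its 4 tested probe sets it lost it (difference -1.05, limma adjusted p = 0.134).

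*Per2* encodes the period protein whose loss shortens and then abolishes mouse behavioural rhythms. Its brightest probe set, 1417602_at, had 289.8 and 309.7 in *Clock* mutant skin, against 572, 706 and 755 in WT skin. The mutant arrays were close to each other and separated from the lowest WT array by 0.89 on the log2 scale. The difference was -1.17 (SE 0.146, confidence interval -1.498 to -0.839, limma adjusted p = 0.0321), at place 18 by p.

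The further probe sets of *Per2* were similar in size to the brightest. Probe set 1457350_at had 108 and 164 in mutants and 337, 431 and 282 in WT (difference -1.37, SE 0.236, limma adjusted p = 0.111), and 1417603_at had 112 and 119.6 in mutants and 215, 249 and 218 in WT (difference -0.97, SE 0.175, limma adjusted p = 0.124). In all 3 the groups were apart, and all 3 had an unadjusted p under 0.001. The mean of the 3 gave -1.17, with a limma adjusted p of 0.0332 when means of tested probe sets were fitted for every gene and 0.0724 when means of all probe sets were.

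*Per1* encodes the period protein whose message is also raised rapidly by cyclic AMP signals and glucocorticoids. Its single probe set, 1449851_at, had intensities of 2052 and 2283 in mutant skin and 2619.9, 3170.4 and 3055 in WT skin. The groups were apart by 0.20 on the log2 scale, the narrowest gap among the 5 genes. The difference of -0.44 (SE 0.103, confidence interval -0.67 to -0.21) had a limma adjusted p of 0.230, so that the interval lay below 0 but the call across the array did not pass.

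*Cry1* and *Cry2* encode the flavoproteins that hold CLOCK-BMAL1 in check, and mice without both are arrhythmic in constant darkness. *Cry1*, at probe set 1433733_a_at, had 300.3 and 339 in mutant skin and 507, 596 and 455 in WT skin. *Cry2*, at probe set 1426383_at, had 634 and 814 in mutant skin and 1174, 1212 and 1151 in WT skin. For both genes the mutants lay below WT without overlap, and the WT arrays of *Cry2* were the closest together of all 12 member probe sets (SD 0.04 on the log2 scale).

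*Cry1* differed by -0.69 (SE 0.150, confidence interval -1.03 to -0.36, limma adjusted p = 0.197) and *Cry2* by -0.71 (SE 0.122, confidence interval -0.99 to -0.44, limma adjusted p = 0.107). Neither passed the adjusted threshold, and *Cry2* alone of the pair had an unadjusted p under 0.001.

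**Figure D3:**
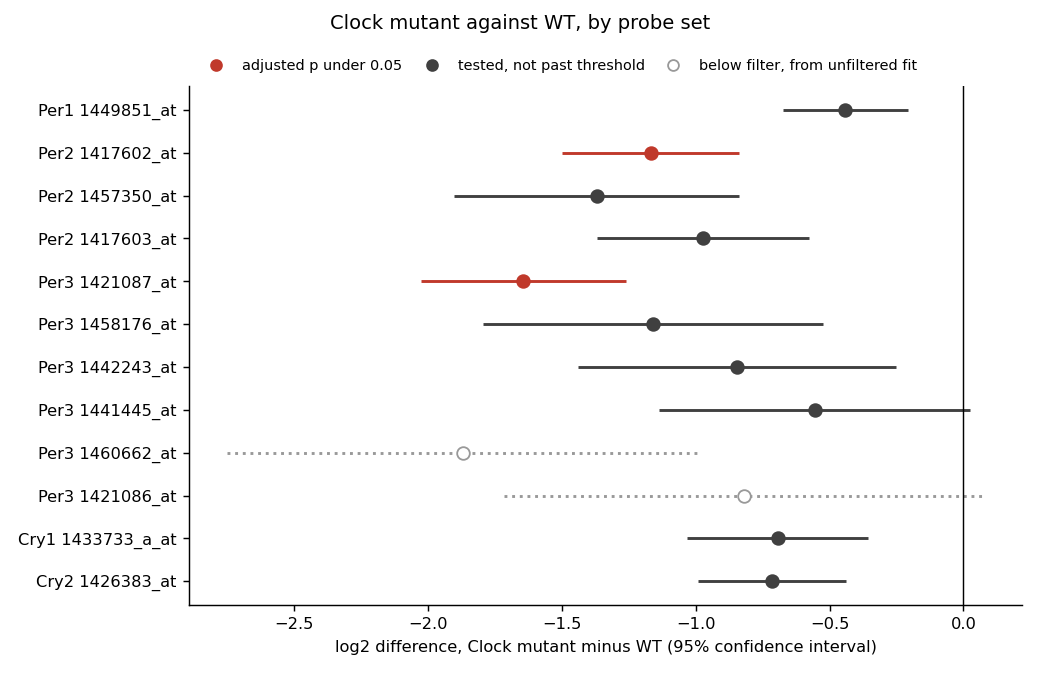
Log2 difference of each member probe set, *Clock* mutant minus WT, with its 95% confidence interval. Red points passed an adjusted p of 0.05, dark points did not, and open points with dotted lines are the dim probe sets from the fit without a filter; all 12 lie below 0.

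Within the groups, the order of the mice differed between members. Mutant replicate 1, the male, was below mutant replicate 2 in 11 of the 12 member probe sets. After each array was centred on its median, which was 0.11 lower on the log2 scale in replicate 1, this held in 9. Of the 12, 6 are of *Per3* and 3 of *Per2*, and the share over all tested probe sets was not taken. Among WT mice, replicate 1 was the highest in 5 of the 6 *Per3* probe sets but the lowest in the *Per1* probe set and in 2 of the 3 of *Per2*. *Dbp* had its highest WT value in the same mouse.

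The 5 genes were also set against each other within each array, as the log2 intensity of one member minus that of another, which asks whether they differed in how far they moved. With 2 against 3 mice the smallest p of an exact permutation test is 0.1, so no pair can pass 0.05. Relative to *Per1*, *Per3* was lower in mutant skin by 1.20 and *Per2* by 0.73, and the groups did not overlap (each exact two-sided p = 0.1, adjusted over the 10 pairs 0.2). *Per3* minus *Cry1* and *Per3* minus *Cry2* differed by -0.95 and -0.93 in the same sense, both again with an exact p of 0.1. These gaps of *Per3* depended on its probe sets: with the mean of each gene's tested probe sets, *Per1* minus *Per3* was 0.61 (exact p = 0.2), *Per3* minus *Cry1* was -0.36 with overlapping groups (exact p = 0.5) and *Per3* minus *Cry2* was -0.34 (exact p = 0.2). *Per2* minus *Cry1* and *Per2* minus *Cry2* differed by -0.47 and -0.45, each without overlap (exact p = 0.2).

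Smaller gaps separated the rest. *Per1* minus *Cry1* was higher in mutants by 0.25 (exact p = 0.2) and *Per1* minus *Cry2* by 0.27 (exact p = 0.1). *Per2* minus *Per3* was 0.33 and 0.56 at its lowest and highest in mutants and -0.51 and 0.35 in WT, which overlapped (difference 0.48, exact p = 0.3), and it turned to -0.12 with the mean of each gene's tested probe sets. *Cry1* minus *Cry2* ranged from -1.27 to -1.08 in mutants and from -1.34 to -1.02 in WT, a difference of 0.02 (exact p = 0.9).

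The genes whose 5 arrays followed each member most closely were found by the root mean square distance between their log2 deviations from the WT mean, over 12954 other genes. For *Per3* the nearest were *Fmo2*, a flavin monooxygenase (distance 0.25), *Cyp2f2*, a cytochrome P450 (0.27), and *Dbp*, the D-box factor (0.28), with *Per2* at place 12. With deviations from the mean of all arrays they were *Cyp2f2* (0.24), *Car11* (0.24) and *Dbp* (0.25). *Dbp* had intensities of 219 and 239 in mutants and 815, 462 and 492 in WT, so that it shared the high WT replicate 1. For *Per2* they were *Alb* (0.09), which encodes serum albumin, the methyltransferase gene *Inmt* (0.17) and *Car11* (0.17), the gene of a carbonic anhydrase relative. With deviations from the mean of all arrays, *Slc25a25* (0.16) replaced *Car11* among those of *Per2*.

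The patterns of the cryptochrome genes were closer to each other than to those of the period genes. They were 0.12 apart, against 0.20 to 0.21 from either to *Per1*. *Cry2* was at place 14 for *Cry1*, and *Cry1* at place 12 for *Cry2* (17 and 19 with deviations from the mean of all arrays). *Cry1* lay nearest *Stk35* (distance 0.03), *Tnni3k* (0.09) and *Wee1* (0.09), which encodes a mitotic inhibitor kinase and had 668 and 743 in mutants and 1073, 1491 and 1087 in WT. *Cry2* lay nearest the carboxylesterase gene *Ces1f* (0.02), *Dyrk1b* (0.05) and *Ces1d* (0.07), and *Per1* nearest *Avil*, *Bdp1* and *Hp* (0.03 to 0.04). With deviations from the mean of all arrays, *Nxt2* (0.08) replaced *Wee1* for *Cry1* and *Lepr* (0.07) replaced *Ces1d* for *Cry2*. The genes nearest *Per1* stayed the same. The median distance over all genes was 0.33 from *Per1* and 1.07 from *Per3*, so distances of different members are not set against each other, and over 5 arrays they describe likeness only.

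Of 27 other clock genes on the lists, 25 had a probe set of their own and 22 were tested. None passed the adjusted threshold of limma at its brightest probe set, and 12 of the 22 were negative. Both mutant arrays lay below all WT arrays in 7 and above them in 4, and the median difference of the 22 was -0.04. Among all 12955 tested genes at their brightest probe sets, 46.4% were negative and the median difference was 0.02. Both mutant arrays lay below all WT arrays in 1588 of these genes, and above them in 12.8% of all tested probe sets. Of the 4 activator genes tested, both mutants lay above all WT mice in 2, *Arntl* and *Npas2*, and the groups overlapped in *Clock* and *Arntl2*. *Arntl*, which encodes BMAL1, had 926 and 1147 in mutants and 599.6, 714 and 621 in WT (difference 0.68, limma adjusted p = 0.158), and *Npas2*, a stand-in for *Clock*, had 218 and 206 in mutants and 142, 184 and 180.0 in WT (0.34, limma adjusted p = 0.542). At its other tested probe set *Arntl* differed by 0.10, and the mean of both was 0.39 (limma adjusted p = 0.453). *Clock* itself had 1105 and 1132 in mutants and 1201, 1111 and 1162 in WT, which overlapped (-0.05, SE 0.0927). Other tested probe sets of *Clock* ranged from -0.53 to 0.25, and none passed the adjusted threshold of limma.

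The REV-ERB receptors, which repress *Arntl*, were split. *Nr1d1* had 467 and 428 in mutants and 308, 259 and 289 in WT (0.65, limma adjusted p = 0.20), whereas *Nr1d2* had 2071 and 2441 in mutants and 3384, 3211 and 3097 in WT (-0.52, limma adjusted p = 0.124). Among further repressors, *Ciart* had 87.9 and 60.9 in mutants and 172, 181 and 138 in WT (-1.15, limma adjusted p = 0.186), and *Bhlhe40* overlapped (-0.46; -0.77 without mutant replicate 1 and -0.15 without mutant replicate 2). All 4 D-box factors were negative: *Dbp* by -1.32 (limma adjusted p = 0.115; its other tested probe set, at -1.54, passed with 0.0360), *Nfil3* by -0.57, *Tef* by -0.47 and *Hlf* by -0.21, the last with overlapping groups. The other tested probe set of *Tef* was at -2.97 (SE 0.675, limma adjusted p = 0.218), and the mean of both was -1.72.

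The 5 genes tested for kinases that phosphorylate PER or CRY, among them *Csnk1d* and *Csnk1e*, ranged from -0.11 to 0.05 at their brightest probe sets, and the 2 ubiquitin ligase genes *Btrc* and *Fbxw11* were at -0.21 and 0.19. Other tested probe sets of these genes spread more widely, from -0.67 to 0.54 for *Csnk2a1* and from -1.09 to 0.08 for *Fbxw11*, and none passed the adjusted threshold of limma.

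**Figure D4:**
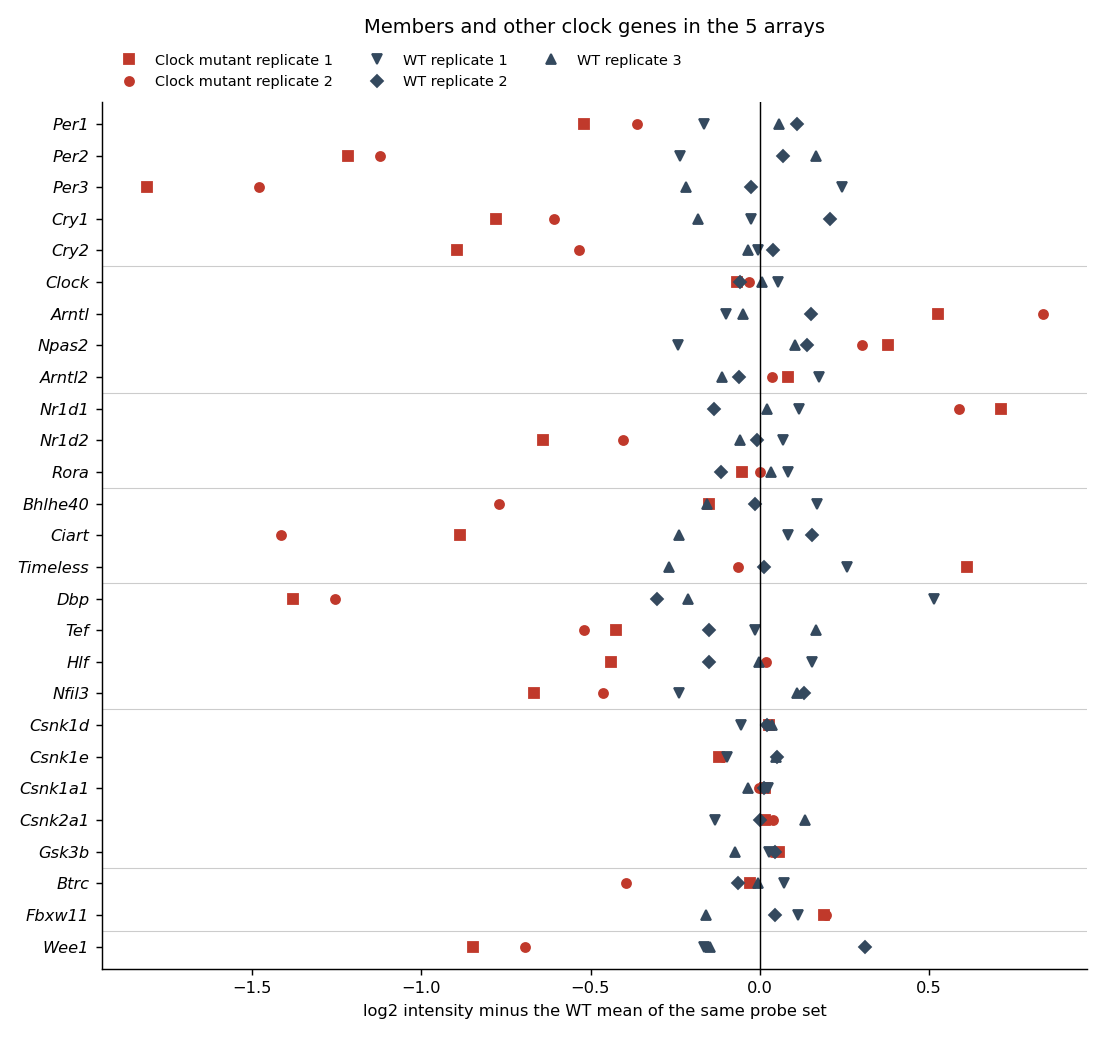
Log2 intensity of the 5 members (top) and of 22 other tested clock genes in each array, minus the WT mean of the same probe set, grouped by role. Each gene is shown at its brightest probe set only. Red markers are *Clock* mutant and dark markers WT arrays. All 5 members have both mutant arrays left of every WT array, while *Arntl* and *Nr1d1* have them on the right.

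The tissue matched its label of dorsal skin: keratinocyte, dermal fibroblast and muscle markers were bright, as were *Adipoq* and *Fabp4* of the adipocyte list. *Lep*, also on that list, was dim, with 142 and 55.9 in mutants and 45.4, 130 and 93.5 in WT. The keratinocyte, fibroblast, adipocyte and muscle lists each had a median difference between -0.07 and 0.04. Melanocyte markers had a median difference of -0.22, with all 3 negative and none past the adjusted threshold, and summed intensities of 2842 and 1961 in mutants and 2907, 2522 and 2775 in WT. Growing hair shaft and inner root sheath genes stood apart, with summed intensities of 6716 and 1153 in mutant replicates 1 and 2 and 1251, 422 and 476 in WT replicates 1, 2 and 3, a median difference of 2.16 over 5 of 6 genes tested. These sums varied between mice within each group, although all mice were staged as telogen. The paper's wild-type time course classed P23 as early anagen. In that time course the paper found *Per1*, *Per2* and *Cry2* among the CLOCK-regulated genes raised in telogen. Its staging of *Bmal1* mutant mice and littermates found males slightly further on in the hair cycle. Whether the mice of these arrays differed in hair cycle stage was not tested. Summed intensities of 4 proliferation genes were 5781 and 3294 in mutants and 4382, 3962 and 3886 in WT. The 3' to 5' signal ratio of *Gapdh*, a sign of RNA quality, was 1.05 and 0.988 in mutants and 0.902, 0.860 and 0.955 in WT. That of *Pcx* was 54.1 and 27.8 in mutants and 21.0, 19.1 and 28.1 in WT, the highest in mutant replicate 1. The part of sex, hair genes, proliferation and RNA quality in the members' differences was not tested. Without mutant replicate 1, which leaves 1 mutant array, *Per3* differed by -1.48, *Per2* by -1.12, *Cry1* by -0.61, *Cry2* by -0.53 and *Per1* by -0.36, all still negative and none past the adjusted threshold (limma adjusted p = 0.0651 for *Per3* and 0.160 for *Per2*).

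**Figure D5:**
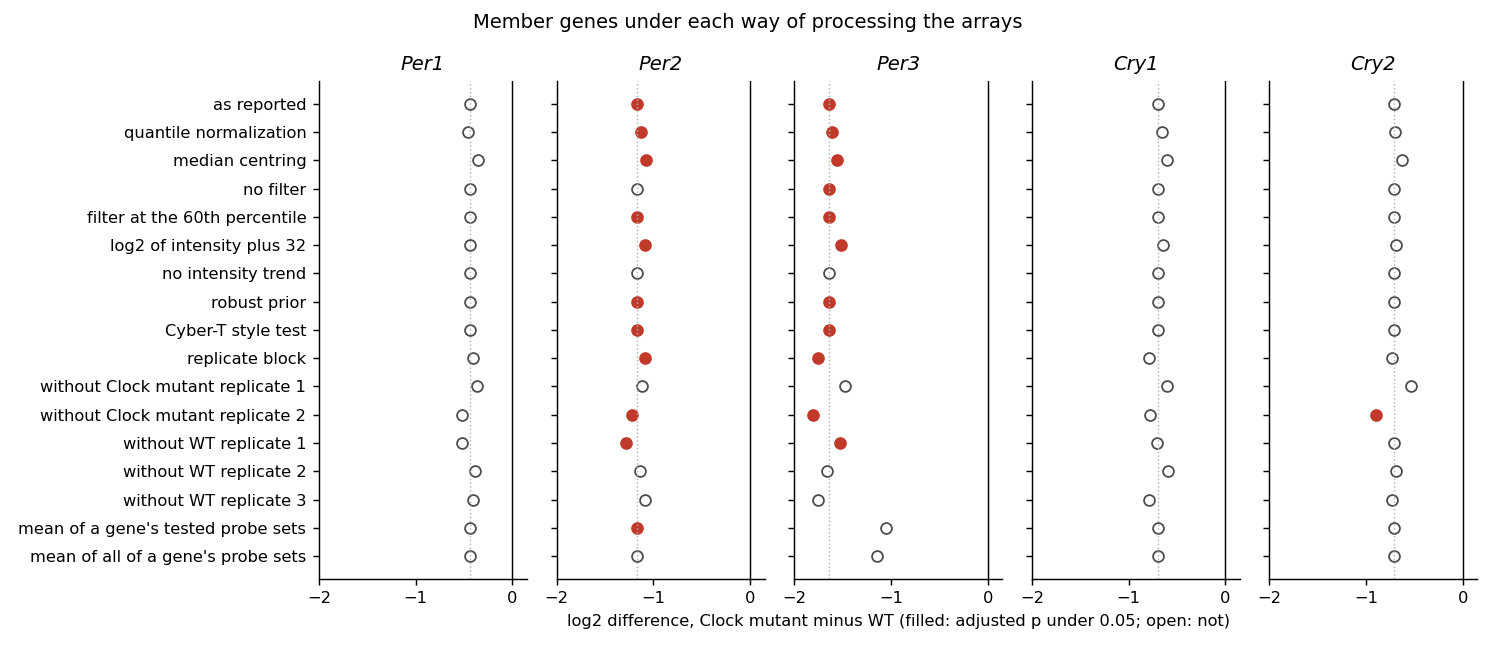
Log2 difference of each member at its brightest probe set, or at the mean of its probe sets in the last 2 lines, under each way of processing the arrays. Filled points passed an adjusted p of 0.05 and open points did not; the dotted line is the reported value. No difference reaches 0, and the calls of *Per2* and *Per3* each hold in 10 of 16 alternatives.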

How the data were processed

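Expression was measured on 5 arrays, of 2 *Clock* mutant and 3 wild-type mice. The authors deposited 1 signal intensity per probe set and array, on a linear scale, made with MAS5 per the submitters' processing notes. The version was not given in the sources used here. The method removes the signal of mismatch probes and applies 1 scale factor per array, and every array had a 2% trimmed mean of 500.0. The widest gap between array medians was 0.16 (log2), and r between arrays lay between 0.950 and 0.960. Dim signals are noisy, which widens the errors of dim probe sets.

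Of 45101 probe sets, 64 controls were left out, and the log2 of each intensity was used, with a floor of 1. Probe sets under the 40th percentile of mean log2 intensity were left out, and 27022 were tested with limma 3.58.1 in R 4.3.3 (functions lmFit and eBayes, variance trend on intensity, two-sided, threshold 0.05 after Benjamini-Hochberg adjustment), a step tested on simulated data. A gene stands for its brightest tested probe set with 1 symbol in the platform annotation. Exact permutation tests went through every split of the arrays in Python 3.11.15. With 2 and 3 arrays per group, the number of arrays limits the precision. The labels call the samples biological replicates.

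Every member probe set was named, with each tested gene of the clock lists open to naming and the 3 nearest genes per member. The members, lists and tests were chosen with earlier results of these data known. Promoters and positions came from RefSeq tables of GRCm38.p6, while the arrays carry no positions. Alternatives were 2 other scalings, 2 other filters, a pseudocount of 32, 3 other forms of the test, 2 means over probe sets, a block for the replicate number and the removal of each array in turn.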

Additional observations from a re-analysis of the deposited data

How the results depend on the processing

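All 5 members kept their direction in each of 16 alternatives, with ranges of -1.81 to -1.05 for *Per3*, -1.29 to -1.08 for *Per2*, -0.78 to -0.59 for *Cry1*, -0.89 to -0.53 for *Cry2* and -0.52 to -0.35 for *Per1*. The calls of *Per2* and *Per3* rested on few arrays. *Per2* (limma adjusted p) lost its call without a filter (-1.17, 0.0671), without an intensity trend (-1.17, 0.355) and with the mean of all its probe sets (-1.17, 0.0724), and *Per3* without a trend (-1.64, 0.301) and with the mean of its tested (-1.05, 0.134) or of all its probe sets (-1.15, 0.132). With 1 array left out, *Per2* ranged from -1.29 to -1.09 and *Per3* from -1.81 to -1.48. Without mutant replicate 1, WT replicate 2 or WT replicate 3, *Per2* had adjusted p-values of 0.160, 0.239 and 0.145 and *Per3* of 0.0651, 0.125 and 0.0572. Without mutant replicate 2, *Cry2* passed (-0.89, 0.0239). Leaving out 1 mutant array leaves 1, which is then assumed to vary like the WT arrays.

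Adjusted calls over all probe sets numbered 24 as reported, 10 without a filter, 0 without a trend (60 at an unadjusted p under 0.001), 47 with a test in the style of Cyber-T, 0 to 201 with 1 array left out (13 without mutant replicate 1, 201 without mutant replicate 2, 0 without WT replicate 2 or without WT replicate 3) and 106 with the replicate block. At an unadjusted p under 0.001 there were 148, 60 to 377 with 1 array left out (92 without mutant replicate 1, 377 without mutant replicate 2, 60 without WT replicate 2, 88 without WT replicate 3) and 269 with the block. Of the 148, 75.7% were lower, against 56.1% of 139 after median centring. Same-numbered deviations correlated at r = 0.01 and 0.10. With 2 mutant arrays, whose deviations mirror each other, these values cannot decide whether replicate numbers pair the mice. With the block, *Per2* probe set 1457350_at passed (-1.52, 0.00729), and no member call was lost. Replicate 3 exists only in WT, so that the block fits that array exactly. Differences with the block therefore equal those without WT replicate 3, and little is left to estimate the error.

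Signs turned for *Per2* minus *Per3* (-0.12 with the mean of tested probe sets), *Clock* (0.039 after median centring), *Hlf* (0.017 without mutant replicate 1; -0.44 to 0.017 with 1 array left out) and *Csnk1d* (-0.0043 after quantile normalization, -0.0042 without WT replicate 1, -0.0042 to 0.042 with 1 array left out, -0.20 with either mean), none of which was called. The dim probe sets and the 5 arrays limit what can be seen of small differences.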
